A study of Schizosaccharomyces pombe with 6 samples.

Results

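The genes described here are 55 genes of DNA replication and S phase in the fission yeast Schizosaccharomyces pombe. They cover the subunits of the replicative helicase, the origin recognition complex, the licensing and activation factors, the replicative polymerases, the sliding clamp and its loader, replication protein A, and several transcripts known to be made at the start of S phase. They were picked by gene name from the 5160 entries of the deposited gene table. The rule held no measured value, but the choice was made with earlier results of these data known. All 55 were found, mcm10 under its other name cdc23, and 54 of them had enough counts to be among the 4987 genes tested. The member not tested was dut1, the dUTPase that keeps uracil out of DNA. RNA sequencing was done on polyadenylated RNA of whole cells in 6 libraries: 3 came from wild-type cells and 3 from a dsk1 mutant. Dsk1 is a kinase of SR splicing proteins, and the title of the study concerns Rad52 and the recombinational repair of broken DNA. The mutant is called a deletion in the design text and a knockdown in the genotype label. No other allele, marker, growth phase or cell cycle synchronisation is given in the labels. Nor is it stated whether replicates were separate cultures, and p-values therefore reflect the spread among these libraries only, part of which may be technical.

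Replication starts in steps that are kept apart in the cell cycle, and the genes fall into groups along them. In G1 the origin recognition complex (ORC), Cdc18 and Cdt1 load the ring-shaped MCM helicase on DNA, and at the start of S phase the Hsk1-Dfp1 kinase, Sld3, Drc1, Cdc45 and the GINS complex turn the helicase on. Polymerase alpha with primase then starts each strand, polymerases epsilon and delta extend the strands, and the PCNA clamp holds the polymerases on DNA. In fission yeast the transcription factor MBF drives a burst of transcription at the G1 to S boundary, with cdc18, cdt1, cdc22 and cdt2 among its known targets, and it recognises the MCB element, whose core is ACGCG. Many transcripts of the fork itself are known to vary little through the cycle.

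The element is shown for 6 members because these promoters mark the S-phase transcripts whose levels are described here. Each promoter window ran from 250 bases before to 50 bases after the start of the gene in the RefSeq annotation of assembly ASM294v3. ACGCG was searched on both strands, overlapping matches were joined, and the palindrome ACGCGT, which holds the core on both strands, was counted as 1 element. The stretches below lie before the annotated start and read 5′ to 3′ towards the gene, with the elements in capitals. Their positions in ASM294v3 were cdc18 chrII:2218011-2218128 (minus strand), cdt1 chrII:477298-477343 (plus strand), cdt2 chrI:2035737-2035838 (minus strand), cdc22 chrI:4226865-4226935 (plus strand), ssb1 chrII:221305-221400 (minus strand) and tos4 chrI:1922417-1922505 (plus strand).
cdc18: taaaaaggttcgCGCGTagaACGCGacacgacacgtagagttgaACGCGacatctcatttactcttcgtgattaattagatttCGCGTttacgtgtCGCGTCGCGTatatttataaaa
cdt1: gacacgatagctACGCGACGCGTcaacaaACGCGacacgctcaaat
cdt2: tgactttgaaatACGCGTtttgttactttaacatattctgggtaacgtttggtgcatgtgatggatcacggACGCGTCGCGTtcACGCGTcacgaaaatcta
cdc22: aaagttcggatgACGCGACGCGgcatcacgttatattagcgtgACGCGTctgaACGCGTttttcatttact
ssb1: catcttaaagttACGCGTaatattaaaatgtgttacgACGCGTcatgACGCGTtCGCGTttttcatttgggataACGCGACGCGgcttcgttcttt
tos4: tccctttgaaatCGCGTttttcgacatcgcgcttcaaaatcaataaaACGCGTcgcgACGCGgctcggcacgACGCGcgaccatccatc

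The window of cdc18, the Cdc6-type licensing factor, held 6 elements, 2 of them side by side close to the gene. The window of ssb1, the large subunit of replication protein A, also held 6. Those of cdt2, cdc22 and tos4 held 4 each, and that of cdt1 held 3. Among all members, 16 of 55 windows (29.1%) held at least 1 ACGCG, against 584 of 5104 windows of protein-coding genes (11.4%). At least 2 elements were present in 11 members (20.0%) and in 84 of all windows (1.65%). These 11 were the 6 shown and pol1, dut1, cdc20, rad21 and psm3. The palindrome ACGCGT was in 7 members (12.7%) and in 166 of all windows (3.25%). The list was made to hold known S-phase transcripts, MBF targets among them, so the higher shares follow in part from that choice. All windows include those of the members. A match is a description of the sequence and not a site of MBF binding, which was not measured in these data.

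Library totals were 15700362 to 19020530 counts. The targeted gene followed the labels: dsk1 was at 99.4, 102 and 99.96 CPM (counts scaled to the library total with TMM factors) in the wild type and at 13.7, 11.3 and 11.9 CPM in the mutant. It was 8.17-fold lower (log2 fold change -3.03, SE 0.13, adjusted p = 1.34e-04 by edgeR's quasi-likelihood test with Benjamini-Hochberg adjustment). The uracil synthesis gene ura4 was counted 1957, 1392 and 1710 times in mutant libraries 1 to 3 and 0 times in every wild-type library, a second difference between the strains that the labels do not mention. Wild-type library 2 stood apart: on the first principal component, which held 60.1% of variance, it had a score of -37.9, while wild-type libraries 1 and 3 scored -9.54 and -2.29 and mutant libraries scored 13.1 to 19.6. Relative to the mean of each gene over the 6 libraries, levels also varied with gene length in a library-dependent way. The rank correlation of this relative level with length across genes was 0.297 and 0.284 in mutant libraries 1 and 2. It was -0.0826 in mutant library 3, and -0.0752 to -0.162 in the wild type. For the members with a test below, the log2 fold change without library 2 or with the length trend removed is therefore given where it moved by over 1.5 times. The parts that ura4, library 2 and length play in the results were not tested.

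No replication gene was called as different in the dsk1 mutant. None of the 54 tested members (0 of 54) passed an adjusted p of 0.05 in edgeR's quasi-likelihood test, where 101 of all 4987 genes did (2.03%). An unadjusted p under 0.05 was reached by 5 members (9.26%), against 22.7% of all genes. Of these, 4 were higher in the mutant, mcm2, mcm6, drc1 and cdm1, against a background of 9.2% of all genes, and 1, orc5, was lower, against 13.5%. DESeq2 called 2 members, mcm2 and cdm1, both higher. It called 11.1% of all genes, and 4.01% of all genes were called higher. With limma on log2 FPKM, 0 members and 1.93% of all genes were called. The authors' deposited table has mcm2 and cdm1 at an adjusted p of 0.0352 and 0.00199. These are the same values as in the DESeq2 fit, so that table is not a second source. In it 11% of all genes pass an adjusted p of 0.05, and 3.97% of all genes pass as higher. Only cdm1 also reached 2-fold there, a mark that 2.62% of all genes reached.

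How large a difference these data leave room for is read from the intervals. For 47 of the 54 members (87.0%) the 95% interval of the fold change lay within a 2-fold change in either direction, against 79.5% of all genes. For 23 (42.6%) it lay within 1.5-fold, against 41.7% of all genes. The members whose interval reached past 2-fold were orc5, drc1, cdc6, cdc1, cdc27, cdm1 and psm3. The log2 fold change was above 0 for 36 members (66.7%), against 50% of all genes, and the median was 0.18 against a median of -0.00032 over all genes. With the trend of fold change on length removed the median of the members was 0.10, and without wild-type library 2 it was 0.08.

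**Figure D1:**
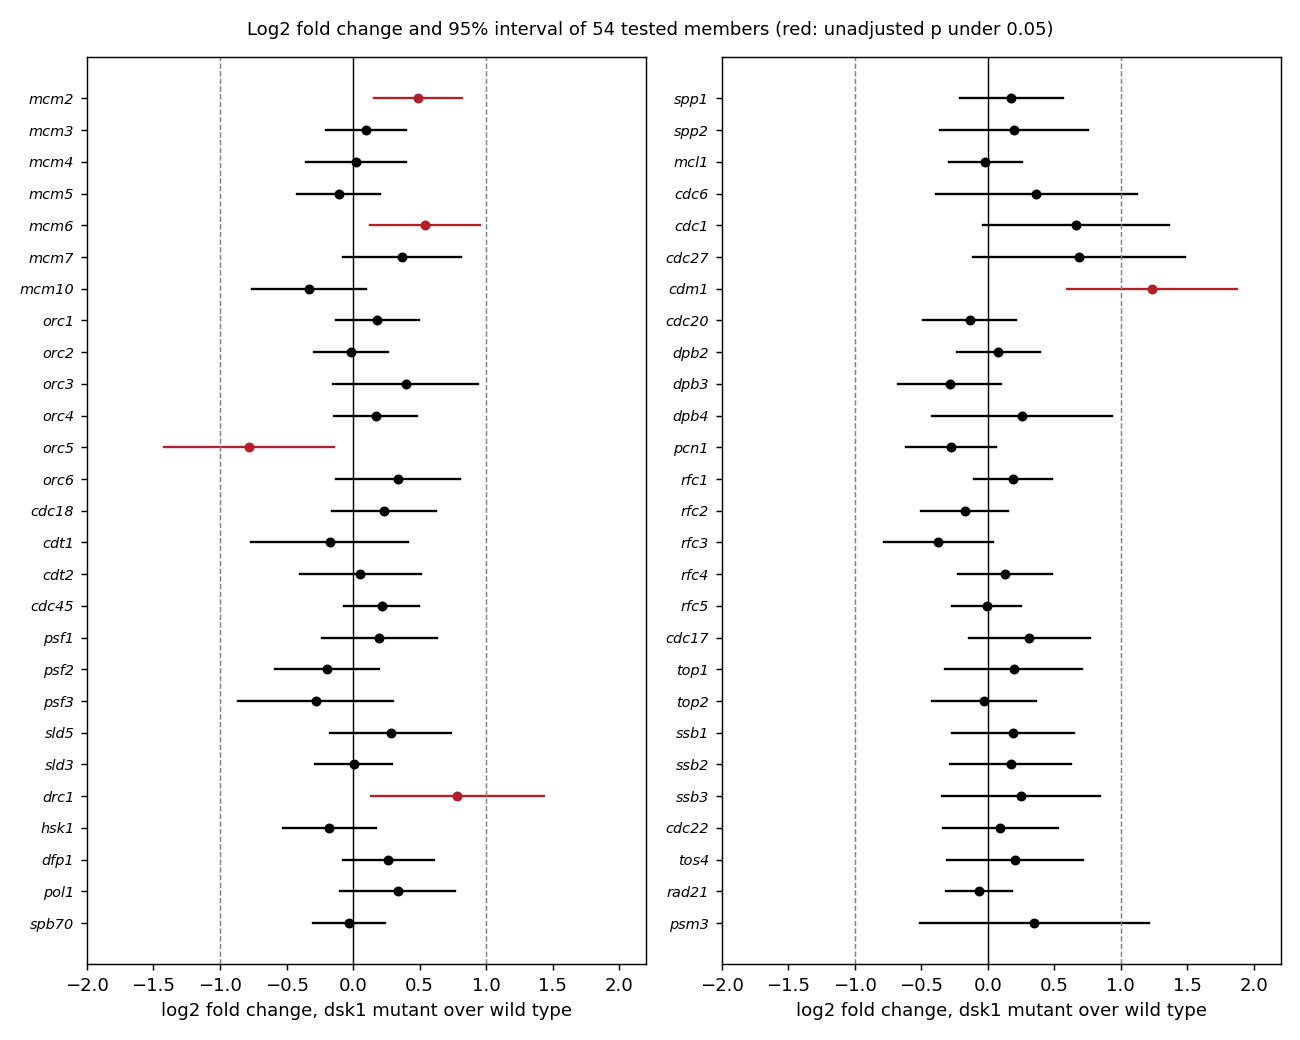
Log2 fold change of the dsk1 mutant over the wild type (x axis) for the 54 tested members (y axis), with points for the estimate and lines for the 95% interval; dashed lines mark a 2-fold change and red marks an unadjusted p under 0.05. The 5 red genes are mcm2, mcm6, drc1 and cdm1 to the right of 0 and orc5 to the left.

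The plot of intervals has most members between the dashed lines of a 2-fold change, with more estimates above 0 than below. The 3 mutant libraries lay apart from the 3 wild-type libraries for 9 of the 54 members (16.7%), against 32.1% of all genes. In 7 of them the mutant was higher (mcm2, mcm6, mcm7, orc6, cdc45, cdc1 and cdm1), where 15.5% of all genes had this order, and in 2 it was lower (orc5 and rfc3), where 16.6% of all genes did. The summed level of all members was 4003, 3686 and 4127 CPM in the wild type and 4228, 4498 and 4113 CPM in the mutant. The lowest sum was that of wild-type library 2 and the highest that of mutant library 2, and the groups overlapped. In RNA from a whole culture, a change in the share of cells in S phase and a change in RNA per cell cannot be told apart.

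**Figure D2:**
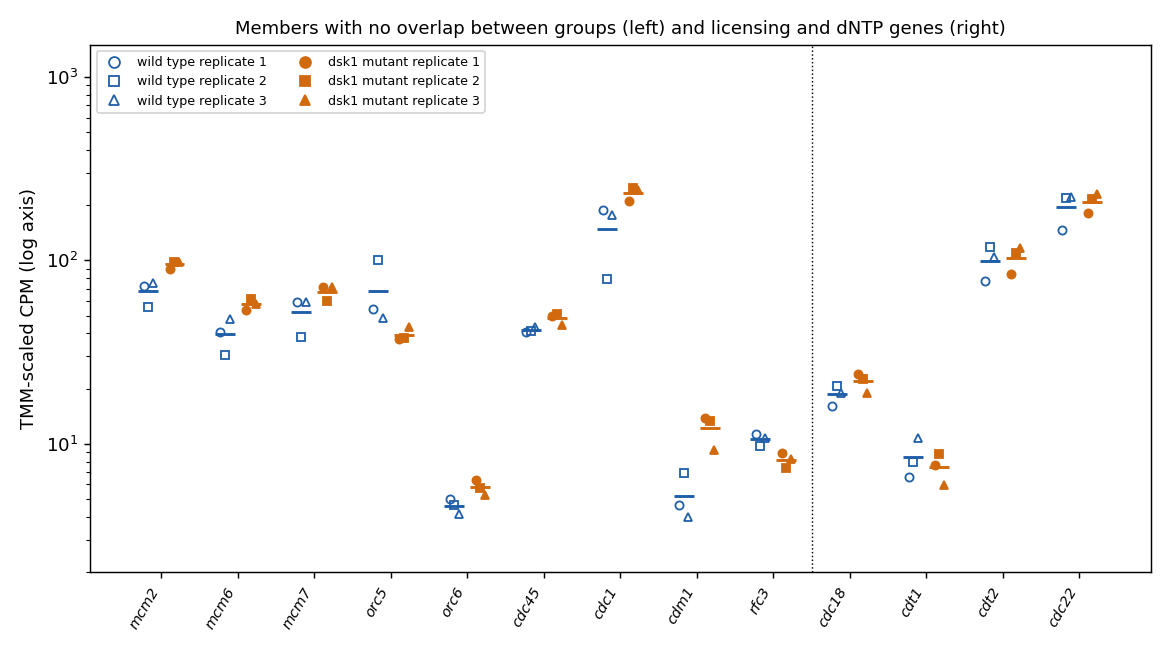
TMM-scaled CPM (log y axis) of the 9 members whose groups did not overlap, left of the dotted line, and of cdc18, cdt1, cdt2 and cdc22, right of it, in each library; short bars are group means. Wild-type library 2 (open squares) is the lowest wild-type point for mcm2, mcm6, mcm7, cdc1 and rfc3 and the highest for orc5 and cdm1.

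Among the MCM genes, which encode the helicase that unwinds DNA at the fork, mcm2 and mcm6 had the highest values in the mutant relative to the wild type. The level of mcm2 (SPBC4.04c) was 72.3, 55.8 and 75.0 CPM in the wild type and 89.5, 97.6 and 97.6 CPM in the mutant. The groups did not overlap, and wild-type library 2 was the lowest of all. The fold was 1.40 (log2 fold change 0.49, SE 0.14, 95% interval 0.16 to 0.82), and the adjusted p of edgeR's quasi-likelihood test was 0.114. Without wild-type library 2 the log2 fold change was 0.37. The level of mcm6 (SPBC211.04c) was 40.7, 30.6 and 47.6 CPM in the wild type and 53.7, 61.5 and 58.0 CPM in the mutant, again with no overlap. Its log2 fold change was 0.54 (SE 0.18, 95% interval 0.13 to 0.95, adjusted p = 0.141 by edgeR), and 0.39 without library 2.

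The other helicase subunits had lower log2 fold changes, and their difference from mcm2 and mcm6 was not tested. The level of mcm3 was 215, 244 and 186 CPM in the wild type and 233, 222 and 234 CPM in the mutant, and the groups overlapped. For mcm4 it was 103, 130 and 89.0 against 119, 106 and 101 CPM, and for mcm5 it was 147, 119 and 147 against 131, 138 and 115 CPM. The values of mcm7 were 59.2, 38.3 and 59.3 CPM in the wild type and 71.1, 59.96 and 71.5 CPM in the mutant, where the lowest mutant library was barely above the highest wild-type one. Mcm10 binds the loaded helicase and is needed for its activation. Its transcript, at 49.6, 58.3 and 37.7 CPM in the wild type and 42.3, 34.7 and 38.5 CPM in the mutant, had the lowest log2 fold change among the MCM genes, -0.33 (SE 0.18, 95% interval -0.76 to 0.09, adjusted p = 0.311 by edgeR), and -0.18 without wild-type library 2. Over the 6 ring subunits the median log2 fold change was 0.23, with 5 above 0, and 0.14 with the length trend removed.

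ORC marks the origins, and its Orc1 to Orc5 subunits form the AAA+ core. The transcript of orc5 (SPBC646.14c) was at 54.2, 100.7 and 48.6 CPM in the wild type and at 37.1, 37.8 and 43.3 CPM in the mutant. The groups did not overlap, but wild-type library 2 was far above the other wild-type libraries, at 1.96 times their mean. The level was 1.72-fold lower in the mutant (log2 fold change -0.78, SE 0.27, 95% interval -1.42 to -0.15, adjusted p = 0.162 by edgeR's quasi-likelihood test), and the log2 fold change was -0.38 without that library. At the other end, orc3 (SPAC3H1.01c) was at 34.8, 21.5 and 34.3 CPM in the wild type and 44.7, 43.6 and 30.8 CPM in the mutant, with overlap and a log2 fold change of 0.39 (SE 0.23, 95% interval -0.15 to 0.94, adjusted p = 0.339 by edgeR), or 0.20 without wild-type library 2. The most abundant ORC transcript, orc2, was at 112, 125 and 99.1 CPM against 112, 112 and 109 CPM, and those of the mutant all lay inside the wild-type range. The least abundant, orc6, was at 4.15 to 5.0 CPM in the wild type and 5.26 to 6.38 CPM in the mutant, which do not overlap.

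The 3 licensing factors have MCB-rich promoters printed above. None had groups that lay apart between the strains, where 32.1% of all genes did. Cdc18 recruits the helicase to ORC, and its level limits licensing in fission yeast. Its transcript (SPBC14C8.07c) was at 16.1, 20.7 and 19.0 CPM in the wild type and 24.1, 22.4 and 19.0 CPM in the mutant, and the groups overlapped. The log2 fold change was 0.23 (SE 0.17, 95% interval -0.16 to 0.62, adjusted p = 0.420 by edgeR). Cdt1 brings the helicase to the origin together with Cdc18. Its transcript (SPBC428.18) was at 6.61, 7.93 and 10.8 CPM in the wild type and 7.69, 8.77 and 5.93 CPM in the mutant, with a log2 fold change of -0.18 (SE 0.25, 95% interval -0.77 to 0.42, adjusted p = 0.689 by edgeR). The sign of that value turned without wild-type library 3, to 0.04. Cdt2 is the adaptor through which a cullin ligase destroys Cdt1 and the ribonucleotide reductase inhibitor Spd1 in S phase, and its transcript was at 76.9, 118 and 104 CPM against 84.1, 109 and 117 CPM.

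Among the activation factors, drc1 and psf3 were at the ends of the range. Drc1, the fission yeast counterpart of budding yeast Sld2, joins Rad4 when it is phosphorylated by the S-phase kinase. Its transcript (SPAC6B12.11) was at 22.7, 14.8 and 27.2 CPM in the wild type and 38.5, 46.3 and 26.6 CPM in the mutant. Mutant libraries 1 and 2 were above all others, while mutant library 3 lay inside the wild-type range. The fold was 1.72 (log2 fold change 0.78, SE 0.28, 95% interval 0.13 to 1.43, adjusted p = 0.165 by edgeR's quasi-likelihood test), and the log2 value was 0.58 without wild-type library 2. The GINS subunit psf3 (SPAC227.16c) was at 17.3, 11.6 and 20.6 CPM against 11.5, 16.3 and 12.9 CPM, and its log2 fold change was -0.28 (SE 0.25, 95% interval -0.86 to 0.30, adjusted p = 0.512 by edgeR). It was -0.48 without wild-type library 2 and -0.09 without wild-type library 3. Cdc45, which joins MCM and GINS in the active helicase, was at 40.5, 41.1 and 43.6 CPM in the wild type and 49.8, 50.7 and 44.6 CPM in the mutant. Its groups did not overlap, with means of 41.7 and 48.4 CPM. The remaining members of this group, psf1, psf2, sld5, sld3, hsk1 and dfp1, had log2 fold changes of -0.19 to 0.28.

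The 4 subunits of polymerase delta, the enzyme of the lagging strand, all had log2 fold changes above 0, with a median of 0.67, the highest of the groups. Without wild-type library 2 the median was 0.41. The smallest subunit, cdm1 (SPBC12D12.02c), had 78, 103 and 75 wild-type counts against 275, 248 and 138 in the mutant, or 4.64, 6.92 and 3.99 CPM against 13.8, 13.3 and 9.30 CPM. The groups did not overlap, and mutant library 3 was the lowest of its group. The fold was 2.35 (log2 fold change 1.23, SE 0.27, 95% interval 0.60 to 1.87), with an unadjusted p of 0.00228 and an adjusted p of 0.0661 by edgeR's quasi-likelihood test. Leaving out wild-type library 2, which was the highest wild-type library, gave a log2 fold change of 1.499 and an adjusted p of 0.00969 by edgeR. That fit called 1 of the 54 members, cdm1, where it called 9.32% of all genes and 3.3% as higher. Over all alternatives the adjusted p of cdm1 ran from 0.00199 to 0.294.

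The value of cdm1 cannot be assigned to its own strand with certainty. In the RefSeq annotation, 100% of cdm1 is covered by sad1, a spindle pole body gene, on the other strand, and whether strand was used in counting is not given in the sources used here. The level of sad1 was 119, 143 and 111 CPM in the wild type and 175, 169 and 167 CPM in the mutant, again without overlap (log2 fold change 0.45, adjusted p = 0.105 by edgeR). The part of sad1 in the cdm1 counts was not tested. The same holds for dut1, of which 100% is covered by pct1 on the other strand. The deposited table lists dut1 at 0 counts in 5 libraries and at 64 counts in wild-type library 2, so no fold change is given for it. The neighbour pct1 was at 73.7 ± 20.5 CPM in the wild type and 81.7 ± 8.83 CPM in the mutant (SD, n = 3). Of the 55 members, 6 had a protein-coding gene on the other strand over more than 50% of their span (cdm1, dut1, rfc4, ssb2, cdc6 and mcm5), and 34 had a non-coding RNA annotated there.

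In the other polymerase delta transcripts single libraries stood out. The catalytic subunit, cdc6 (SPBC336.04; a different gene from budding yeast CDC6), was at 79.0, 43.9 and 95.5 CPM in the wild type and 105, 115 and 61.4 CPM in the mutant. Wild-type library 2 and mutant library 3 were the low ones of their groups, at 0.503 and 0.558 times the mean of the other libraries. The log2 fold change was 0.37 (SE 0.32, 95% interval -0.39 to 1.12, adjusted p = 0.511 by edgeR), 0.11 without wild-type library 2 and 0.20 with the length trend removed. The second subunit, cdc1, was at 188, 78.9 and 176 CPM against 211, 249 and 241 CPM, which do not overlap, with wild-type library 2 at 0.433 times the mean of the other wild-type libraries. Its log2 fold change was 0.66, and 0.36 without that library. The PCNA-binding subunit, cdc27, was at 11.8, 7.39 and 15.8 CPM against 20.1, 24.2 and 11.9 CPM, with overlap and a log2 fold change of 0.69, or 0.45 without wild-type library 2. These transcripts of cdc1 and cdc27 fall outside the rule for named genes and were described after their values were seen.

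Polymerase alpha, which makes the primers together with primase, had pol1 and spb70 at the ends of its range. The catalytic subunit, pol1 (SPAC3H5.06c), was at 75.7, 55.1 and 86.9 CPM in the wild type and 92.7, 102 and 79.8 CPM in the mutant, with overlap (log2 fold change 0.33, SE 0.19, 95% interval -0.10 to 0.77, adjusted p = 0.317 by edgeR). That value was 0.17 without wild-type library 2 and 0.17 with the length trend removed. The B subunit, spb70, was among the steadiest members, at 52.6, 55.1 and 50.3 CPM against 51.5, 48.3 and 55.0 CPM. Its log2 fold change was -0.03 (SE 0.12, 95% interval -0.30 to 0.24, adjusted p = 0.892 by edgeR), 0.0054 without wild-type library 2 and -0.07 with the length trend removed. In polymerase epsilon, the enzyme of the leading strand, the histone-fold subunits dpb4 and dpb3 were at the ends. The level of dpb4 (SPBC3D6.09) was 6.79, 4.03 and 7.83 CPM against 8.64, 7.805 and 5.86 CPM, with a log2 fold change of 0.26 (SE 0.29, 95% interval -0.42 to 0.94, adjusted p = 0.612 by edgeR), and 0.03 without wild-type library 2. That of dpb3 (SPAC17G8.03c) was 43.1, 48.9 and 33.9 CPM against 36.0, 31.8 and 35.4 CPM, with a log2 fold change of -0.29 (SE 0.17, 95% interval -0.67 to 0.10, adjusted p = 0.331 by edgeR), and -0.16 without that library. In each of these the groups overlapped.

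The clamp, its loader and the ligase had a median log2 fold change of -0.01. PCNA itself, encoded by pcn1, was at 187, 230 and 164 CPM in the wild type and 159, 165 and 154 CPM in the mutant, with overlap. Replication factor C opens the clamp and places it on DNA. Its small subunit rfc3 (SPAC27E2.10c) was at 11.2, 9.68 and 10.8 CPM in the wild type and 8.89, 7.37 and 8.29 CPM in the mutant, and the groups did not overlap. The log2 fold change was -0.37 (SE 0.17, 95% interval -0.78 to 0.04, adjusted p = 0.253 by edgeR). The DNA ligase that seals Okazaki fragments, cdc17 (SPAC20G8.01), was at the other end, with 62.7, 43.3 and 55.5 CPM against 67.3, 79.7 and 53.4 CPM and a log2 fold change of 0.31 (SE 0.19, 95% interval -0.14 to 0.77, adjusted p = 0.361 by edgeR). Without wild-type library 2 that value was 0.18.

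The topoisomerases relieve the twist ahead of and behind the fork. The level of top1 was 42.5, 32.3 and 39.4 CPM in the wild type and 49.2, 51.1 and 30.5 CPM in the mutant (log2 fold change 0.20, SE 0.22, 95% interval -0.32 to 0.71, adjusted p = 0.610 by edgeR), with 0.10 without wild-type library 2 and 0.12 with the length trend removed. That of top2 was 107, 87.8 and 115 CPM against 109, 113 and 81.4 CPM (log2 fold change -0.03, SE 0.17, 95% interval -0.42 to 0.37, adjusted p = 0.929 by edgeR), with -0.13 and -0.24 under the same changes. In both, mutant library 3 was the lowest of all 6. Replication protein A coats single-stranded DNA at the fork and at resected breaks. Its subunit ssb2 was at 255, 162 and 268 CPM against 237, 273 and 263 CPM (log2 fold change 0.17, SE 0.19, 95% interval -0.28 to 0.63, adjusted p = 0.610 by edgeR), and the value was -0.02 without wild-type library 2 and 0.07 with the length trend removed. The sec1 gene covers 97.1% of ssb2 on the other strand. The small subunit, ssb3, rested on 32, 23 and 33 counts against 36, 44 and 30 counts (log2 fold change 0.25, SE 0.26, 95% interval -0.35 to 0.84, adjusted p = 0.576 by edgeR), and 0.51 with the length trend removed.

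None of the few S-phase transcripts outside the fork had groups that lay apart, where 32.1% of all genes did. Among them, tos4 was at 121, 79.5 and 134 CPM against 128, 151 and 105 CPM. The large subunit of ribonucleotide reductase, cdc22 (SPAC1F7.05), which makes deoxynucleotides, was at 146, 220 and 221 CPM in the wild type and 181, 216 and 229 CPM in the mutant. Wild-type library 1 was the low one, and the groups overlapped. The log2 fold change was 0.09 (SE 0.19, 95% interval -0.34 to 0.53, adjusted p = 0.776 by edgeR), and -0.07 without that library. It was 0.19 without wild-type library 2 and 0.02 with the length trend removed. The cohesin kleisin rad21 (SPCC338.17c) had the narrowest interval of the named genes, at 174, 181.5 and 178 CPM against 157, 179 and 175 CPM with a log2 fold change of -0.06 (SE 0.11, 95% interval -0.31 to 0.19, adjusted p = 0.735 by edgeR), or -0.16 with the length trend removed. The cohesin SMC subunit psm3 (SPAC10F6.09c) had the widest, at 30.5, 15.9 and 43.4 CPM against 42.8, 45.8 and 25.9 CPM with a log2 fold change of 0.35 (SE 0.37, 95% interval -0.51 to 1.21, adjusted p = 0.585 by edgeR). Its wild-type library 2 was at 0.429 times the mean of the other wild-type libraries, the lowest such ratio among the members. The log2 fold change was 0.05 without that library, 0.72 without wild-type library 3 and 0.23 with the length trend removed.

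Sorted by promoter, the members with several MCB elements had a median close to that of the members with none. The 10 tested members with at least 2 elements had a median log2 fold change of 0.14, with 7 above 0, a range of -0.18 to 0.35 and none at an unadjusted p under 0.05 in edgeR (0 of 10), where 22.7% of all genes were. For 9 of the 10 the 95% interval lay within a 2-fold change, and psm3 was the exception. The 39 members with no element had a median of 0.17, and the 5 with 1 element had a median of 0.25. Over all genes, 81 tested genes with at least 2 elements had a median of 0.05. EdgeR called 0 of them, where it called 2.03% of all genes. It gave 14 of the 81 an unadjusted p under 0.05, where 22.7% of all genes had one. Without wild-type library 2 the medians of the members with at least 2, 1 and no element were 0.03, 0.18 and 0.10. The levels of the 10 members ran from 5.39 FPKM for cdt1 to 116 FPKM for ssb1 in the wild type, with a median of 31.7 FPKM.

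**Figure D3:**
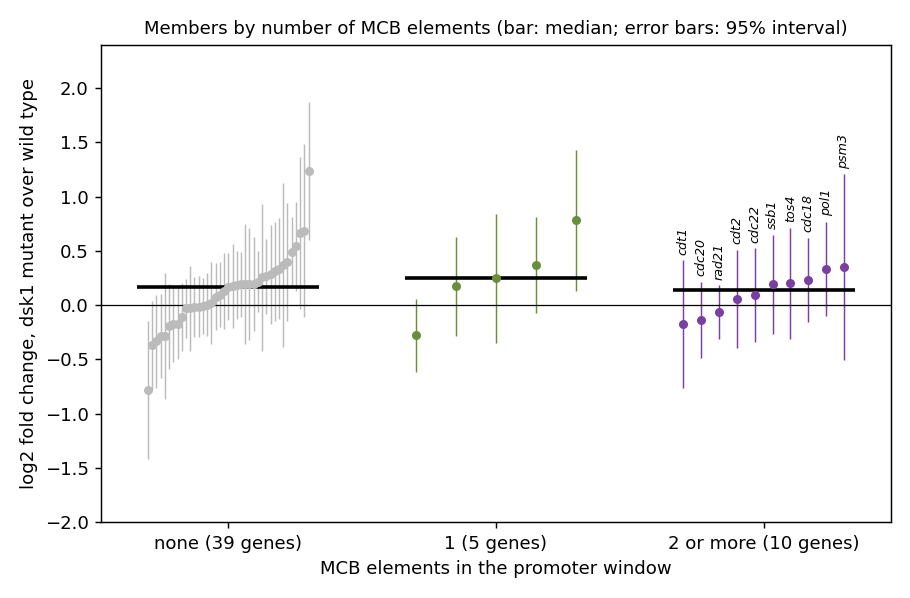
Log2 fold change (y axis) of the tested members by number of MCB elements in the promoter window (x axis: none, 1, or 2 or more), with 95% intervals as error bars and group medians as black bars. The medians are 0.17, 0.25 and 0.14, and the intervals of all 10 genes at the right reach across 0.

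In the plot of fold change by number of elements, the spread within each class is wider than the distance between the medians. Introns were examined because Dsk1 phosphorylates splicing proteins. The 37 members with introns had a median log2 fold change of 0.18, the 17 without introns 0.09, and the 6 with at least 3 introns 0.08. The order turned without wild-type library 2, where the medians were 0.05, 0.15 and -0.02, and with the length trend removed they were 0.14, 0.06 and 0.01. EdgeR called 0 of the 54 members in these groups, against 2.03% of all genes, and the 2 members called by DESeq2, mcm2 with introns and cdm1 without, are among them. Splicing itself was not measured by these gene-level counts.

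Levels per length differed between transcripts whose proteins act in the same complex. In the MCM ring the mean wild-type level was 54.3 ± 3.80 FPKM for mcm3 and 13.3 ± 3.79 FPKM for mcm6 (SD, n = 3), a ratio of 4.08 that ran from 2.99 to 6.09 over the wild-type libraries. Next to mcm3 in the order came mcm4, mcm5, mcm2 and mcm7, and in the wild type only mcm3 lay apart from its neighbour in all libraries. In the mutant the ratio of mcm3 to mcm6 was 3.04 (2.76 to 3.32). The ORC transcripts ran from 59.5 ± 3.32 FPKM for orc2 to 4.59 ± 0.518 FPKM for orc6, the lowest level among the tested members, a ratio of 12.97 in the wild type and 10.2 in the mutant.

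**Figure D4:**
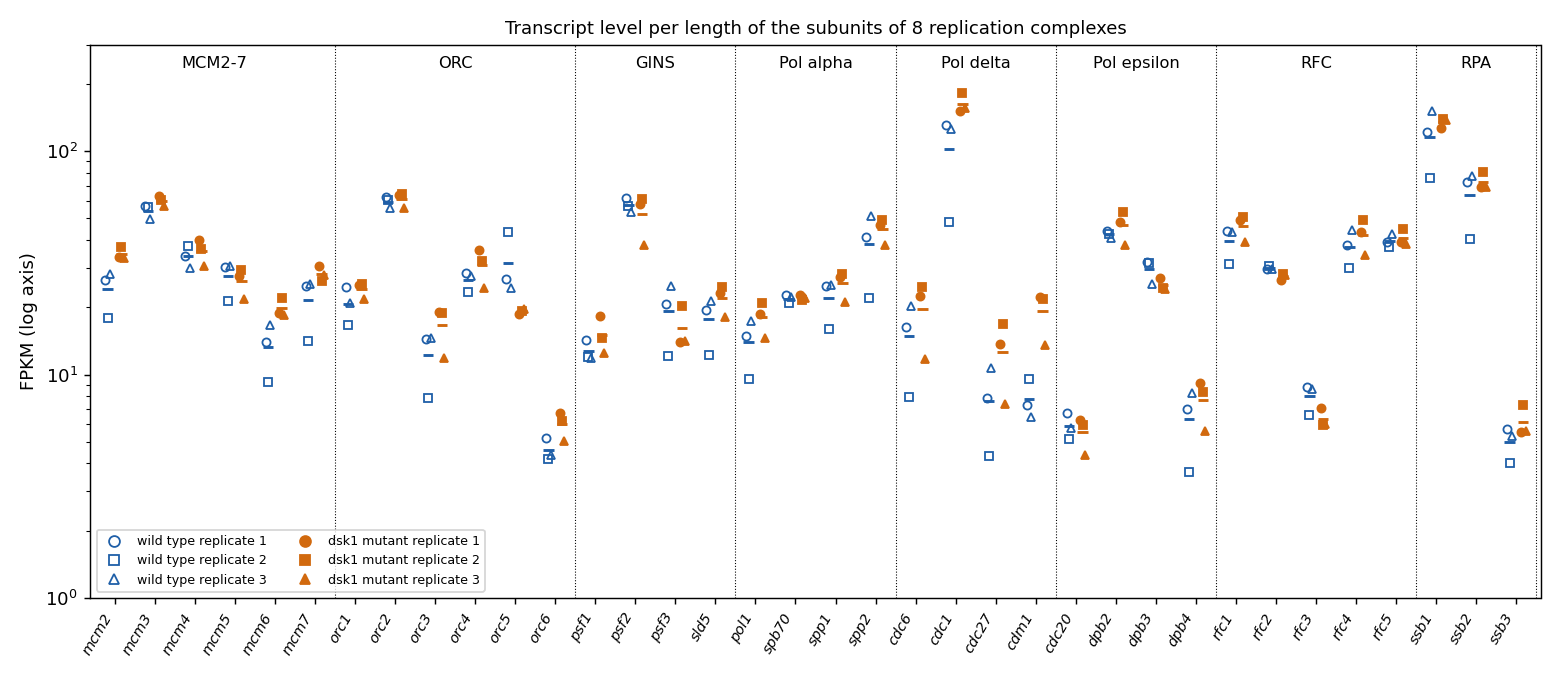
FPKM (log y axis) of the subunits of 8 replication complexes (x axis) in each library, with short bars for group means. The highest subunits by group mean are mcm3, orc2, psf2, spp2, cdc1, dpb2, rfc5 or rfc1 and ssb1. The subunit with the lowest mean is the same in both groups for each complex, though not in every library.

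In the plot of complex levels the same subunits have the lowest group mean in both strains, though not in every library. In wild-type libraries 1 and 3 cdm1 was below cdc27, at 7.31 and 6.44 against 7.87 and 10.7 FPKM. In mutant library 1 psf3 was below psf1, at 14.05 against 18.2 FPKM. GINS ran from psf2 at 57.4 FPKM to psf1 at 12.7 FPKM in the wild type, a ratio of 4.52, against 3.48 in the mutant. Polymerase alpha and primase ran from spp2 at 38.3 to pol1 at 13.9 FPKM, with ratios of 2.75 and 2.48, and polymerase delta from cdc1 at 102 ± 46.4 to cdc27 at 7.63 ± 3.20 FPKM, with ratios of 13.4 and 12.9. Polymerase epsilon ran from dpb2 at 42.4 to cdc20 at 5.87 FPKM, with ratios of 7.23 and 8.44. The catalytic subunit had the lowest mean in polymerases alpha and epsilon, though cdc20 overlapped with dpb4, while in polymerase delta cdc6, at 14.9 FPKM, came after cdc1 and overlapped with cdm1. Replication factor C ran from rfc5 at 39.7 to rfc3 at 8.003 FPKM, with a ratio of 4.97 in the wild type and 7.30 in the mutant, and rfc3 was apart from the other 4 in every library. Replication protein A had the widest range, from ssb1 at 116 to ssb3 at 5.01 FPKM, with ratios of 23.2 and 22.0. Its low end rests on few counts, since ssb3 is short, at 343 bases, and had 23 to 44 counts per library. The kinase pair dfp1 and hsk1 stood at 57.6 and 17.8 FPKM, a ratio of 3.23 in the wild type and 4.30 in the mutant. The highest member was pcn1 at 143 FPKM. The median member was at 21.7 FPKM in the wild type, against 39.8 FPKM over all tested genes.

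The spread between replicates was compared for the members and for all genes. The median SD of log2 CPM over the wild-type libraries was 0.239 for the members and 0.230 for all genes, and over the mutant libraries it was 0.140 and 0.142. Without wild-type library 2 the wild-type values were 0.131 and 0.094. That library was the lowest of its group for 30 members, a position it had for 45.7% of all genes, and mutant library 3 was the lowest of its group for 34, against 43.6% of all genes. The members with the lowest ratios in wild-type library 2 were psm3, cdc1, cdc6, cdc27, spp2 and dpb4, at 0.429 to 0.552 times the mean of the other wild-type libraries, while orc5 and cdm1 were at 1.96 and 1.603 times it.

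**Figure D5:**
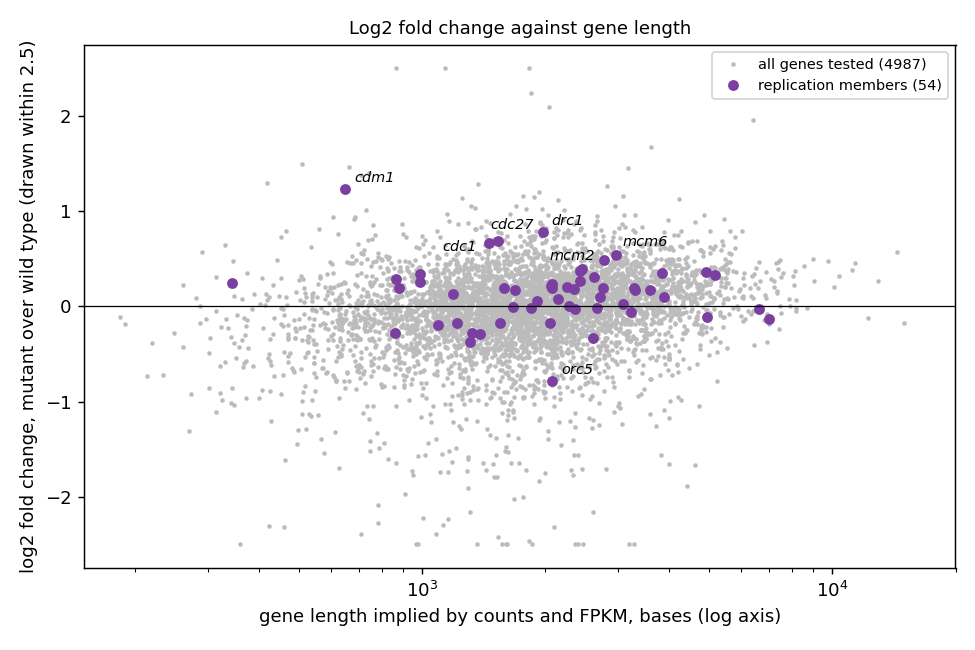
Log2 fold change (y axis, drawn within 2.5) against gene length in bases (log x axis) for all 4987 tested genes in grey and the 54 tested members in purple. The members run from -0.78 for orc5 to 1.23 for cdm1 and are spread over the length range of the genome.

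The plot against length shows the members among all genes. Their median length was 2111 bases against 1826 bases for all tested genes. Across genes, the rank correlation of log2 fold change with length was 0.240 over all genes and 0.0289 over the members, a description over genes that share the same libraries. With the length trend removed, 0 members and 1.64% of all genes were called by edgeR, and 9 members had an unadjusted p under 0.05 (16.7%), against 22.4% of all genes. These were mcm2, mcm6, drc1, cdc1 and cdm1 as higher and mcm5, orc5, cdc20 and top2 as lower.

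Genes around the replication set were compared by list, and edgeR called none in any list, where it called 2.03% of all genes and gave 22.7% an unadjusted p under 0.05. DESeq2 called 11.1% of all genes and limma 1.93%, the shares against which their counts per list stand. Of 22 other replication genes, 21 were tested, with a median log2 fold change of 0.06, which was -0.0019 without wild-type library 2 and -0.01 with the length trend removed. Of these, 2 had an unadjusted p under 0.05. The gene with the smallest p was swi3, part of the fork protection complex, at 15.5 ± 1.001 CPM in the wild type and 10.4 ± 0.934 CPM in the mutant (log2 fold change -0.57, adjusted p = 0.107 by edgeR, n = 3), followed by rad4, the partner of Drc1 (0.33, adjusted p = 0.157 by edgeR). DESeq2 called 1 gene of this list, swi3. The histone chaperone gene spt16 was listed at 0 in every library. The list of 7 other MBF targets shares suc22 and mrc1 with that of the other replication genes. Its median was 0.17, 0.04 without wild-type library 2 and 0.06 with the length trend removed. An unadjusted p under 0.05 was reached by 2 of the 7, ctp1 at -0.53 and yox1 at -0.68 (adjusted p = 0.217 and 0.219 by edgeR). The 9 histone genes all had log2 fold changes above 0, with a median of 0.21, or 0.30 without wild-type library 2. An unadjusted p under 0.05 was reached by 2 of them, hhf1 and hhf3, which were at 0.48 and 0.32 (adjusted p = 0.133 and 0.204 by edgeR). Their copies are near identical, so counts may be split between them. The summed histone level was 6495 to 8643 CPM in the wild type and 7599 to 8692 CPM in the mutant.

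A later wave of the cell cycle was examined beside them. Of 14 genes of mitosis and septation the median log2 fold change was 0.19, which was 0.26 without wild-type library 2 and 0.10 with the length trend removed. An unadjusted p under 0.05 was reached by 5, against 22.7% of all genes, and 4 of them were higher in the mutant, against 9.2%. The cell wall genes cfh4 and agn1 were at 0.52 and 0.48 (adjusted p = 0.0760 and 0.119 by edgeR). DESeq2 called 3 of the list, mid1, agn1 and cfh4, and limma called 1, cfh4. The summed level of the list was 2855 to 3246 CPM in the wild type and 3452 to 4094 CPM in the mutant, which do not overlap, while the sum over the replication members overlapped. Whether the lists differ in this was not tested. The sum is weighted to the most abundant gene of the list, mid2, at 971 ± 413 CPM in the wild type and 1286 ± 188 CPM in the mutant (SD, n = 3). Of the 14 genes, 10 had log2 fold changes above 0 and 4 below. Of 11 genes of sexual differentiation, which are induced on starvation, 10 were tested, with a median of 0.25, or 0.13 without wild-type library 2. An unadjusted p under 0.05 was reached by 2, again against 22.7%. The meiotic cohesin gene rec8 was at -0.87 and the kinase gene spk1 at 1.11 (adjusted p = 0.0512 and 0.0709 by edgeR), and DESeq2 called both. The summed level of that list was 229 to 405 CPM in the wild type and 394 to 483 CPM in the mutant.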

How the data were processed

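RNA of 3 wild-type and 3 dsk1 mutant libraries was grouped by the genotype in the labels. Per the labels' protocols, RNA was extracted with Trizol, selected with oligo(dT), reverse transcribed, amplified by PCR and sequenced. Tools in the submitters' processing notes, without versions or roles, are DESeq2, RSEM, StringTie, HISAT2, Bowtie2 and fastp. Genome build and strand use are not given in the sources used. The authors deposited, per the file headers, whole-number counts and FPKM values by gene and library. Their comparison was deposited as a log2 fold change with a p-value and an FDR. How the counts became whole is not stated.

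The quasi-likelihood test in edgeR 4.0.16 (R 4.3.3) was run on all counts, with TMM factors of 0.895 to 1.06, default filtering of low counts and no term beside genotype. P-values were adjusted over the 4987 genes tested, and 173 were left out. Calls needed an adjusted p under 0.05. Intervals are 95% intervals of the fit and include the spread between libraries. Levels are CPM, and levels are compared between genes only as the deposited FPKM. DESeq2 1.42.0, limma 3.58.1 on log2(FPKM + 1) for genes with a mean of at least 1 FPKM, other scalings and filters, removal of the length trend (a lowess curve with a span of 0.3) and leaving out each library were alternatives. A count of 3 is 0.158 to 0.191 CPM. This floor covers counting error only, since PCR copies cannot be told from separate molecules. No replicate pair looked like a repeated deposit: chi-square divided by its degrees of freedom was 26.8 to 282.

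Fold changes with tests are given for members with an unadjusted p under 0.05, for the highest and lowest of each functional group, and for cdc18, cdt1 and cdc22. Lists of other replication genes, other MBF targets, histones, mitosis and septation, and sexual differentiation are given as counts and medians with the genes of smallest p. Members and lists were chosen with earlier results of these data known. RefSeq assembly ASM294v3 matched 5109 of the 5160 entries and all 55 members, and gave promoters, introns and overlaps. The authors' build may differ.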

Additional observations from a re-analysis of the deposited data

How the results depend on the processing

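Of 407 values of the 24 named members under the alternatives, 388 kept their direction and their side of the threshold, 3 passed the threshold only there (mcm2 and cdm1 with DESeq2, and cdm1 without wild-type library 2) and 16 changed sign. DESeq2 called 2 members, and leaving out single libraries gave 0 to 1. Over all genes the count of calls was 101, against 568 with DESeq2 and 3 to 466 without 1 library. The number of members with an interval within 2-fold ran from 41 to 51, and the median log2 fold change from 0.08 to 0.22.

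Correlations of same-numbered deviations from the group means were 0.165, -0.358 and -0.187, and those of differently numbered ones ran from -0.227 to 0.408. Deviations from a mean of 3 libraries depend on each other, so these values cannot show whether replicate numbers mark pairs. With the replicate number as a block, 0 members and 3 of all genes were called, and 0 members and 4 genes with the length trend removed as well.

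The changes of sign were all of small log2 values. For spb70 and top2 they were 0.0146 and 0.0175 with library totals only, 0.0147 and 0.0123 with limma at a pseudocount of 1, with or without its filter, and 0.0154 and 0.0127 at a pseudocount of 0.1. Without single libraries spb70 ran from -0.0781 to 0.0164, top2 from -0.129 to 0.108, cdc22 from -0.0729 to 0.191, ssb2 from -0.0201 to 0.304 and cdt1 from -0.320 to 0.0421. The cause was not tested.

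In the other lists, DESeq2 called 1 gene of the other replication genes, 3 of mitosis and septation and 2 of sexual differentiation. It called 11.1% of all genes. Limma called 1 of mitosis and septation, and 1.93% of all genes. Leaving out single libraries gave 0 to 4 calls in mitosis and septation, 0 to 3 in sexual differentiation and 0 to 2 in histones. The highest of these counts all came from the fit without wild-type library 2, which called 9.32% of all genes. A member without a call is not shown to be alike in both strains, and its interval gives the differences the data allow.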
